A study of Mus musculus with 4 samples.

Results

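The genes described here encode the machinery that packages, docks and releases cytotoxic granules. They were taken by name as Nkg7, Srgn, Lamp1, Lamp2, Rab27a, Unc13d, Stx11, Stxbp2, Lyst and Cd63, which makes 10 genes of the 23990 gene symbols in the data. RNA was measured in effector CD4 cells (CD44+CD4) sorted at the onset of EAE, a mouse model of MS. The cells came from spinal cords (CNS) or from draining lymph nodes that had been pooled (dLN). All mice were wild type C57BL/6J per the paper (C57BL/6 in the labels), immunized with a MOG peptide in complete Freund's adjuvant together with pertussis toxin, and their age and sex are not given in the sources used here. Each tissue had 2 libraries, made with TruSeq RNA V2 kits and sequenced on HiSeq2500. The study's methods state a stimulation with PMA and ionomycin before RNA purification, whereas the sample labels describe the cells as freshly sorted, so the sources conflict on this. Neither source says that the 2 libraries of a tissue came from separate mice, so p-values measure only the spread between these libraries, which may be technical.

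Cytotoxic lymphocytes store granzymes and perforin in secretory lysosomes, where the proteoglycan serglycin holds the cargo. After contact with a target cell the granules move along microtubules to the synapse, dock through Rab27a, are primed by Munc13-4 and fuse through the SNARE protein syntaxin-11 with its partner Munc18-2. Inherited loss of Rab27a, Unc13d, Stx11, Stxbp2 or Lyst impairs killing by T cells and NK cells and can lead to hemophagocytic lymphohistiocytosis in humans. CD4 cells can also acquire such granules.

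Expression was given as FPKM, the fragments per kilobase of transcript and per 1 M mapped fragments, so that levels of different genes are compared per length. Depth was read from the steps of low FPKM values, of which 90.9% to 93.1% were whole multiples of 1 fragment within a tolerance of 0.05, where chance gives 10%. It was 20.8 M fragments in CNS replicate 1, 21.6 M in CNS replicate 2, 18.5 M in dLN replicate 1 and 22.0 M in dLN replicate 2. Lyst, at the lowest level of the members past the minimum in both tissues, was still read with 2233, 2000, 434 and 512 fragments in these libraries. Cd63 was read with 12, 96, 2 and 0 fragments.

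The libraries of the tissues stood apart in more than tissue. Xist, the RNA that silences an X chromosome in female cells, was at 26.6 and 22.3 FPKM in the dLN libraries, and at 0 and 0.0026 FPKM in the CNS libraries. The Y-linked genes Ddx3y, Eif2s3y, Kdm5d and Uty were listed at 0 in both dLN libraries and were read in both CNS libraries, Eif2s3y at 44.7 and 34.7 FPKM. Tissue and sex of the mice cannot be told apart for any gene below. Genes induced by T cell stimulation also split by tissue. Of a list of 16 such genes, 11 fell in CNS, 1 rose and 4 were not called, with 1 of the 11 past the minimum in dLN alone. Over all genes tested, as defined below, 37.2% were called lower, 37.8% higher and 74.9% in either direction. The share of the list called in either direction lay near this, and the difference was in direction. Cd69 rose, at 516 and 510 FPKM in CNS and 189 and 221 FPKM in dLN. The summed level of the 16 genes was 1360 and 2062 FPKM in CNS against 9691 and 10980 FPKM in dLN. Il2, with the highest mean of them over the 4 libraries, was at 18.2 and 38.8 FPKM in CNS and at 5363 and 6176 FPKM in dLN. The part of stimulation in the differences below was not tested.

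CNS replicate 2 also differed from the other libraries in markers of myeloid cells. The summed level of 17 microglia and macrophage markers was 30.2 FPKM in CNS replicate 1 and 277 FPKM in CNS replicate 2, and 4.61 and 4.22 FPKM in dLN. Lyz2, with the highest mean over the 4 libraries because of CNS replicate 2, was at 3.22 and 92.1 FPKM in CNS and at 0.0621 and 0 FPKM in dLN. Of these markers 12 were tested, of which 8 were called higher in CNS and 4 not called. Those 8 passed the minimum in CNS alone, so that their direction was set by it, and 13 of the 17 were under 0.1 FPKM in both dLN libraries. A list of 8 neutrophil genes summed to 1.30 and 213 FPKM in CNS and to 0.0440 and 0.0177 FPKM in dLN. S100a8 was at 101 FPKM in CNS replicate 2 and at 0 elsewhere, and Elane was listed at 0 in all 4. For members whose call or direction depends on CNS replicate 2, values without it are given below.

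A gene entered the limma test on log2(FPKM + 1) when its mean reached 1 FPKM in either tissue, and it was called at a Benjamini-Hochberg adjusted p under 0.05 over all 10634 genes tested. All 10 members were tested, of which 9 passed the minimum in both tissues and Cd63 in CNS alone. Between CNS and dLN effector CD4 cells, 6 members were called higher (Nkg7, Rab27a, Lyst, Unc13d, Lamp2 and Stxbp2), 2 were called lower (Srgn and Stx11), and Lamp1 and Cd63 were not called. Over all genes tested 37.8% were called higher, 37.2% lower and 74.9% in either direction, so the count of 8 called members lay near the background. In 9 of the 10 members the libraries of the tissues did not overlap, against 89.4% of all genes tested. The members had a median log2 ratio of 1.11, beside 0.05 over all genes tested. This median fell in a gap between Lamp2 (0.59) and Unc13d (1.64). Cd63, whose direction was set by the minimum, counted on its upper side, so the median is not a stable summary. Log2 ratios of the members ran from -1.82 for Stx11 to 4.93 for Nkg7. The members thus differed in direction and size, and their levels are described below by role. In these bulk samples, fewer cells that express a gene and less of its RNA per cell cannot be told apart. With 2 libraries on each side the smallest two-sided p of an exact permutation is 0.333, so calls rest on the spread that limma shares across genes.

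**Figure D1:**
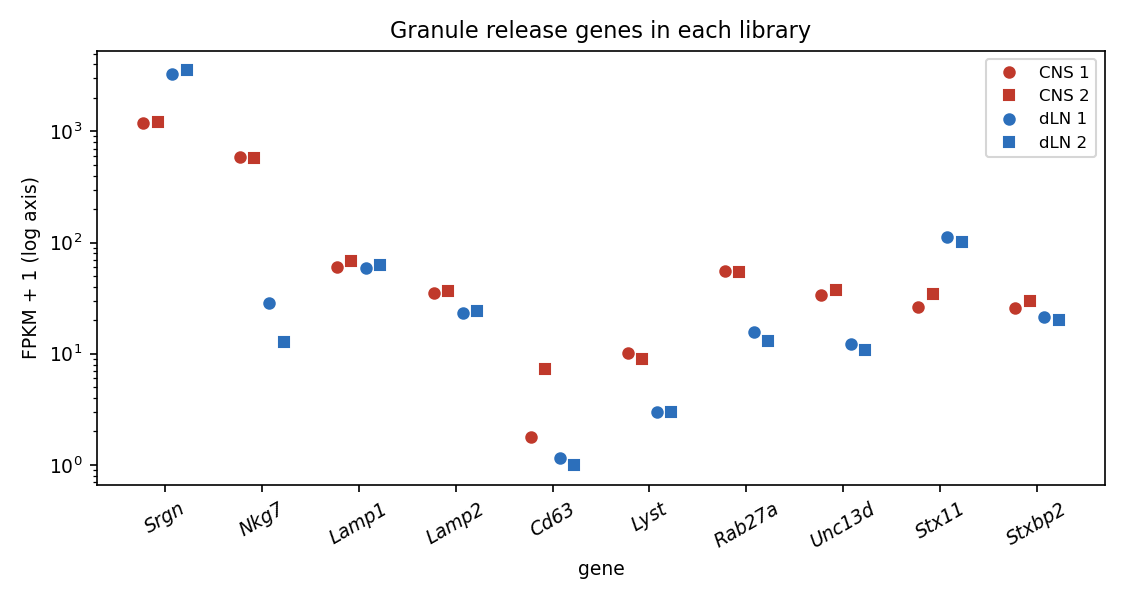
FPKM + 1 of the 10 members on a log axis in each library, with CNS in red, dLN in blue, circles for replicate 1 and squares for replicate 2. Srgn and Stx11 lie higher in dLN, Nkg7 lies at 593 and 578 FPKM in CNS and 27.9 and 11.9 FPKM in dLN, and Lamp1 overlaps between the tissues.

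Srgn (Entrez gene 19073, chromosome 10, 62494428 to 62507755, minus strand) encodes serglycin, the proteoglycan core of the granule matrix that binds granzymes and perforin. It was at 1181 and 1202 FPKM in CNS and at 3303 and 3531 FPKM in dLN. Each dLN library lay above each CNS library, and the mean was 2.87-fold higher in dLN. On the log2 scale CNS over dLN was -1.52 (limma adjusted p = 9.81e-05, standard error 0.07). Srgn was the most abundant member in every library, and in dLN it lay above 99.9% of the genes tested. It made up 58.6% and 58.7% of the summed FPKM of the members in CNS, and 92.5% and 93.7% in dLN. Without Srgn, the sum of the members was 835 and 847 FPKM in CNS and 268 and 239 FPKM in dLN.

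Nkg7 (Entrez gene 72310, chromosome 7, 43437138 to 43438246, plus strand) encodes a membrane protein of cytotoxic granules that takes part in their movement and release. It was at 593 and 578 FPKM in CNS and at 27.9 and 11.9 FPKM in dLN. The CNS libraries lay close together and far above the dLN libraries, which differed from each other more. In CNS the mean was 586 ± 11.1 FPKM, 29.5-fold that of dLN at 19.9 ± 11.3 FPKM (each SD, n = 2). Its log2 ratio of 4.93 (limma adjusted p = 0.000349, standard error 0.38) ranked 25 from the top among the 10634 genes tested. With each library left out in turn it lay between 4.34 and 5.51. In CNS, Nkg7 exceeded 98.6% to 98.7% of the genes tested, and in dLN 55.0% to 74.0%. Srgn was 1.99 and 2.08 times as abundant as Nkg7 in the CNS libraries, and 119 and 297 times in the dLN libraries.

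Nkg7 is also a gene of NK cells and CD8 T cells, and their markers were low. All 8 NK cell markers were under 0.1 FPKM in both dLN libraries. The 2 that were tested passed the minimum in CNS alone, so their call as higher in CNS was set by it. The list summed to 4.07 and 7.41 FPKM in CNS and to 0.140 and 0.0621 FPKM in dLN. Klrb1c, its most abundant gene in CNS, was at 2.53 and 3.22 FPKM in CNS, Ncr1 was at 0 and 0.581 FPKM, and Klra1 was listed at 0 in all 4 libraries. Cd8b1 was at 3.66 and 4.56 FPKM in CNS and at 3.38 FPKM in both dLN libraries (log2 ratio 0.22, limma adjusted p = 0.181). Cd8a was at 0.130 and 0.834 FPKM in CNS and at 0.0370 and 0.0154 FPKM in dLN. The part of such cells in the level of Nkg7 was not tested.

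Lamp1 and Lamp2 encode the main glycoproteins of the lysosomal membrane, and Lamp1 (CD107a) appears at the cell surface when granules are released. Lamp1 (Entrez gene 16783, chromosome 8, 13159135 to 13175338, plus strand) was at 58.9 and 67.0 FPKM in CNS and at 58.6 and 61.4 FPKM in dLN. The libraries of the tissues overlapped. The log2 ratio was 0.07 with a 95% interval from -0.19 to 0.32 (limma adjusted p = 0.568), which leaves room for differences of either sign within that interval. It was -0.13 after each library was rescaled to the same summed FPKM, 0.20 (adjusted p = 0.115) after rescaling to the same upper quartile, and -0.03 without CNS replicate 2. Grtp1, on the opposite strand, overlaps the Lamp1 locus in the annotation and was at no more than 0.124 FPKM in any library.

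Lamp2 (Entrez gene 16784, chromosome X, 38401357 to 38456460, minus strand) was at 34.5 and 35.3 FPKM in CNS and at 22.4 and 23.5 FPKM in dLN. The tissues did not overlap, and Lamp2 rose in CNS with a log2 ratio of 0.59 (limma adjusted p = 0.00227, standard error 0.08). Lamp1 was 1.70 and 1.90 times as abundant as Lamp2 in the CNS libraries and 2.62 times in both dLN libraries. Lamp2 lies on the X chromosome, and the sex-linked transcripts differed between the tissues as given above.

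The Lamp2 locus has 3 RefSeq transcripts in the tables, which share 1109 coding bases and then end in different last coding exons. These exons encode the membrane anchor and the short tail in the cytosol. Their sequences are shown because the transcripts moved apart. They were read from GENCODE M21 (GRCm38, minus strand), with 30 shared bases in lower case and the coding bases of each transcript's own end in capitals.
1788-base transcript, own end in the exon at chrX:38405435-38405571: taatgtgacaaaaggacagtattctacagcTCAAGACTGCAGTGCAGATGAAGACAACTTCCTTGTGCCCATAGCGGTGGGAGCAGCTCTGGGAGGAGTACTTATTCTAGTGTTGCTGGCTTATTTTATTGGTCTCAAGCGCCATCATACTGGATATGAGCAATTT
3614-base transcript, own end in the exon at chrX:38421715-38421851: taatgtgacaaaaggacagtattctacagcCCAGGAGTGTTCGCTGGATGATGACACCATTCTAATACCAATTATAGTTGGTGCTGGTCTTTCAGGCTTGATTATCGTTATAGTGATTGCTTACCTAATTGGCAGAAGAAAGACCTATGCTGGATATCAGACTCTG
Of the 136 coding bases in capitals, 72 are identical at the same position in both (52.9%).

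The 1788-base transcript was at 20.8 and 21.3 FPKM in CNS and at 6.91 and 8.33 FPKM in dLN, 2.77-fold higher in the mean of CNS. The 3614-base transcript was at 13.4 and 13.5 FPKM in CNS and at 15.4 and 14.9 FPKM in dLN, so it lay slightly higher in both dLN libraries. The 2190-base transcript stayed at or under 0.510 FPKM in every library. The 1788-base transcript therefore made up 60.3% and 60.4% of the Lamp2 FPKM in CNS and 30.9% and 35.5% in dLN. Transcripts of the same gene share fragments that have to be divided between them, so these shares are estimates, and no test was run on them.

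**Figure D2:**
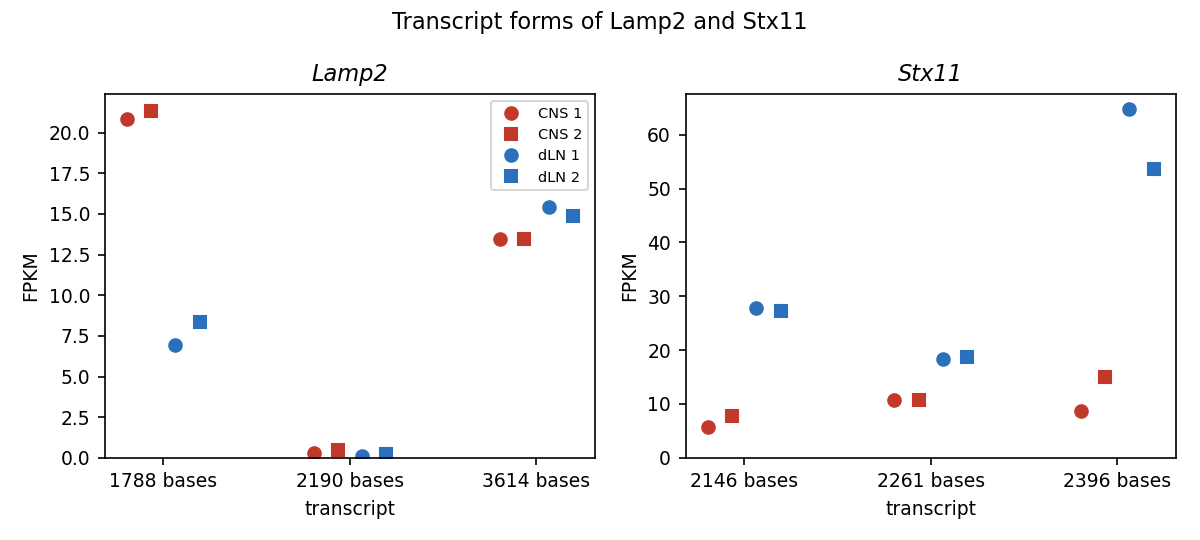
FPKM of each RefSeq transcript of Lamp2 (left) and Stx11 (right), named by length, with CNS in red, dLN in blue, circles for replicate 1 and squares for replicate 2. The 1788-base transcript of Lamp2 lies at 20.8 and 21.3 FPKM in CNS and at 6.91 and 8.33 FPKM in dLN, while the 3614-base transcript lies between 13.4 and 15.4 FPKM in all 4 libraries.

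Cd63 (Entrez gene 12512, chromosome 10, 128908919 to 128912818, plus strand) encodes a tetraspanin of late endosomes and secretory lysosomes. It was at 0.766 and 6.27 FPKM in CNS and at 0.152 and 0 FPKM in dLN. Only CNS replicate 2 was above 1 FPKM. The log2 ratio was 1.74 (95% interval -0.02 to 3.50, limma adjusted p = 0.0672), so Cd63 was not called. It passed the minimum in CNS alone, so that the direction of any call was set by it. Cd63 was 8.18 times as high in CNS replicate 2 as in CNS replicate 1, whereas the corresponding ratios of the other members lay between 0.865 and 1.33. The summed microglia and macrophage markers were 9.19 times as high in CNS replicate 2 as in replicate 1, and their part in the Cd63 level was not tested. Cd63 was called with pseudocounts of 0.1 (log2 ratio 3.89) and 0.5 (2.36), after scaling by the median of ratios (1.73) and without CNS replicate 1 (2.76). Its adjusted p lay between 0.00530 and 0.178 over the alternatives. Without CNS replicate 2 it did not pass the minimum and was not tested.

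Lyst (Entrez gene 17101, chromosome 13, 13590409 to 13777440, plus strand) encodes a large BEACH-domain protein that limits the size of lysosomes and granules, and is the gene of Chediak-Higashi syndrome. It was at 9.21 and 7.97 FPKM in CNS and at 2.02 and 2.003 FPKM in dLN. Each CNS library lay above both dLN libraries, and the mean was 4.27-fold higher in CNS. Its log2 ratio was 1.67 (limma adjusted p = 0.000243, standard error 0.11).

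Rab27a (Entrez gene 11891, chromosome 9, 73044810 to 73097614, plus strand) encodes the small GTPase that docks granules at the plasma membrane. It was at 54.6 and 53.4 FPKM in CNS and at 14.6 and 11.9 FPKM in dLN. The tissues did not overlap, and the mean was 4.08-fold higher in CNS. Rab27a had a log2 ratio of 1.96 (limma adjusted p = 0.000185, standard error 0.12). Its 3048-base transcript held 87.3% to 93.5% of the FPKM in each library, so the level of the gene was mainly that of 1 transcript. A processed pseudogene overlaps the Rab27a locus on the same strand in the annotation.

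Unc13d (Entrez gene 70450, chromosome 11, 116062096 to 116077961, minus strand) encodes Munc13-4, the effector of Rab27a that primes docked granules. It was at 32.9 and 36.8 FPKM in CNS and at 11.2 and 9.72 FPKM in dLN. Again both CNS libraries lay above both dLN libraries. Unc13d had a log2 ratio of 1.64 (limma adjusted p = 0.000257, standard error 0.11), a 3.32-fold difference of the means. The ratio of Rab27a to Unc13d was 1.66 and 1.45 in CNS and 1.30 and 1.22 in dLN, so the levels of the GTPase and its effector moved by similar factors.

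Stx11 (Entrez gene 74732, chromosome 10, 12939983 to 12964259, minus strand) encodes syntaxin-11, a SNARE protein of the plasma membrane needed for granule fusion. It was at 25.2 and 33.6 FPKM in CNS and at 111 and 99.6 FPKM in dLN. Here each dLN library lay above each CNS library, in the direction opposite to Rab27a and Unc13d. Its log2 ratio was -1.82 (limma adjusted p = 0.000478, standard error 0.16), and the mean was 3.58-fold higher in dLN. Each of its 3 RefSeq transcripts was lower in CNS. The mean of dLN over that of CNS was 4.08-fold for the 2146-base transcript, 1.73-fold for the 2261-base transcript and 4.97-fold for the 2396-base transcript.

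Stxbp2 (Entrez gene 20911, chromosome 8, 3631160 to 3643644, plus strand) encodes Munc18-2, which binds syntaxin-11 and stabilises it. It was at 24.98 and 28.7 FPKM in CNS and at 20.2 and 19.1 FPKM in dLN. The tissues did not overlap but lay close. Stxbp2 had a log2 ratio of 0.43 (limma adjusted p = 0.0157, standard error 0.10). After rescaling to the same summed FPKM it was 0.24 with an adjusted p of 0.0718, and its adjusted p ranged from 0.00431 to 0.0838 over the alternatives. The call was also lost without CNS replicate 2 (log2 ratio 0.33, adjusted p = 0.0550), without dLN replicate 1 (0.47, 0.0542) and without dLN replicate 2 (0.39, 0.0838). Stx11 was 1.01 and 1.17 times as abundant as its partner Stxbp2 in CNS, and 5.49 and 5.23 times in dLN. The ratio of Unc13d to Stx11 was 1.31 and 1.10 in CNS and 0.101 and 0.0976 in dLN.

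**Figure D3:**
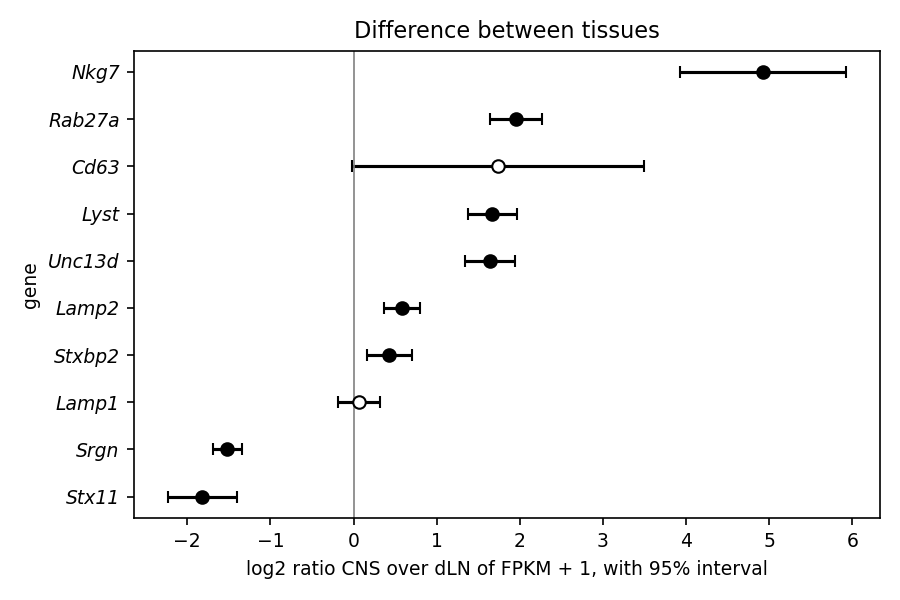
Log2 ratio of CNS over dLN on the FPKM + 1 scale for the 10 members, with 95% intervals from limma (2 libraries per tissue), filled points for genes with an adjusted p under 0.05 and open points for the others. Nkg7 lies highest at 4.93 and Stx11 lowest at -1.82, and the interval of Cd63 spans -0.02 to 3.50.

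Rescaling each library to the same summed FPKM shifted the median log2 ratio of all genes by -0.18, and rescaling to the same upper quartile by 0.12. With these scalings and with the median of ratios, the members kept their direction apart from Lamp1.

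The order of the levels differed between the tissues. In CNS it ran from Srgn over Nkg7, Lamp1, Rab27a, Lamp2, Unc13d, Stx11, Stxbp2 and Lyst to Cd63. Within it, Lamp2 and Unc13d, Unc13d and Stx11, and Stx11 and Stxbp2 overlapped in their libraries as neighbours. In dLN the order was Srgn, Stx11, Lamp1, Lamp2, Nkg7, Stxbp2, Rab27a, Unc13d, Lyst and Cd63, in which Nkg7 overlapped with both neighbours. Stx11 was thus second in dLN at 105 ± 7.96 FPKM (SD, n = 2), where Nkg7 was second in CNS.

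A window of Nkg7 and 1 of the 2 windows of Rab27a are shown because both genes rose in CNS and both of these windows held letters that RUNX and T-box factors are known to bind. Of the 10 members, 9 had an entry in the RefSeq promoter table (GRCm38.p6), with 11 windows in all, and Unc13d is named only. The 250 bases before each start were searched on both strands for TGTGGT (RUNX), GGTGTGA (T-box), TCACGTGA (CLEAR) and TGANTCA (AP-1). TCACGTGA was taken as a form of the CLEAR element of lysosomal genes, and only exact matches were counted. Over 32851 promoters of the same length, 14% held the RUNX letters, 3.33% the T-box letters, 0.785% the CLEAR letters and 6.75% the AP-1 letters. Among the 11 windows of the members, 4 held the RUNX letters, 1 each of Nkg7, Lamp1, Rab27a and Srgn. The T-box letters were held by 2, 1 each of Nkg7 and Rab27a, and the CLEAR or AP-1 letters by 0. The shorter letters CACGTG, which lie inside the CLEAR letters, do occur in the Lamp1 window, but they were not searched for. The Srgn window with the RUNX letters starts inside an annotated Srgn exon. Capitals mark the matches, and the sequences run 5′ to 3′ on the strand of the gene.
Nkg7, plus strand, chr7:43436888-43437072: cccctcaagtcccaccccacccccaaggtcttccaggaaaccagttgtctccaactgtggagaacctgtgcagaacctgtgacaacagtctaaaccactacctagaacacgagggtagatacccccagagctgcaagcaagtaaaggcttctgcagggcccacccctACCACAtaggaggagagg
Rab27a, plus strand, chr9:73044560-73044809: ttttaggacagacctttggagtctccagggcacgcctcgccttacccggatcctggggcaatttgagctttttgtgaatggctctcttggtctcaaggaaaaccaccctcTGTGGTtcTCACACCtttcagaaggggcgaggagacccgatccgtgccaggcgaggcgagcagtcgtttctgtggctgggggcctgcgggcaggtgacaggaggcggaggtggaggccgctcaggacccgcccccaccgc
The Nkg7 sequence stops where the first exon of a longer GENCODE transcript begins. The T-box letters of Nkg7 start 13 bases before the RefSeq start, inside that exon, and its RUNX letters start 83 bases before it. In Rab27a the RUNX letters start 140 bases and the T-box letters 132 bases before the start of the transcript. The other Rab27a window, chr9:73063898-73064147, held neither the RUNX nor the T-box letters. Lyst, Lamp2 and Stxbp2 were also called higher in CNS, and their windows held neither the RUNX nor the T-box letters. Windows of Lamp1, which was not called, and of Srgn, which was called lower, held the RUNX letters. A match is a description of the letters and not of binding, and its part in the levels was not tested.

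Other genes of the pathway were taken from 5 lists, which held 130 genes in the tables. Of 110 tested, 58 were called higher in CNS, 31 lower and 21 not called, with a median log2 ratio of 0.33 beside 0.05 over all genes tested. Of all genes tested 37.8% were called higher and 37.2% lower, which is 4016 and 3952 of 10634. After rescaling to the same summed FPKM the pathway counts were 45 higher and 39 lower, and those of all genes 3408 higher and 4543 lower of 10623. Rescaling to the same upper quartile moved both the other way, to 64 higher and 25 lower for the pathway and to 4477 higher and 3560 lower of 10648 for all genes. With any of the libraries left out, fewer pathway genes were called in each direction, and fewer of all genes were called as well.

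Of 24 tested genes for docking, priming and fusion, 15 rose, 5 fell and 4 were not called (median log2 ratio 0.59), so the share called lay near the 74.9% of all genes tested. The largest rises were those of the Rab GTPases Rab37 and Rab3d and of the Rab27 effector Sytl1. Rab37 was at 55.8 and 46.1 FPKM in CNS and at 1.21 and 0.812 FPKM in dLN (log2 ratio 4.69, limma adjusted p = 8.12e-05). Rab3d had a log2 ratio of 3.43 and Sytl1 one of 3.03. Of the 15 that rose, only Rab3d passed the minimum in CNS alone, which set its direction. The largest falls were those of Stx6 (log2 ratio -2.02), of Napa (-1.12), which encodes the SNARE adaptor alpha-SNAP, and of Sytl3 (-0.80). Stx6, a syntaxin of the Golgi and endosomes, was at 24.3 and 26.4 FPKM in CNS and at 103 and 108 FPKM in dLN. After rescaling to the same summed FPKM 12 were higher and 6 lower, beside 3408 and 4543 of all genes, and with the same upper quartile 17 and 3.

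The close relatives of Rab27a and Unc13d were low. Rab27b was at 0.0136 and 0.0132 FPKM in CNS and listed at 0 in both dLN libraries, against 54.0 FPKM of Rab27a in the mean of CNS. Unc13a and Unc13b stayed at or under 0.388 FPKM in every library, and Unc13c was at 0.00584 FPKM in CNS replicate 2 and at 0 in the others. Stxbp3a, a relative of Stxbp2 used in many tissues, was lower in CNS, at 9.86 and 8.73 FPKM against 13 and 11.2 FPKM (log2 ratio -0.35, limma adjusted p = 0.0435). It was not called after rescaling to the same upper quartile (adjusted p = 0.136). Of the synaptotagmin-like effectors that bind Rab27, Sytl2 was at 28.7 and 22.9 FPKM in CNS and at 3.75 and 1.88 FPKM in dLN, a log2 ratio of 2.85. Sytl3 was at 49.5 and 58.2 FPKM in CNS and at 88.4 and 101 FPKM in dLN. Sytl1 and Sytl2 thus rose in CNS, as Rab27a did, whereas Sytl3 fell.

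Of 41 tested genes for the biogenesis of secretory lysosomes, 20 rose, 12 fell and 9 were not called (median log2 ratio 0.27), a share called near the 74.9% of all genes tested. Laptm5, a lysosomal membrane protein of blood cells, was the most abundant of them in CNS, at 937 and 1084 FPKM, and was at 131 and 92.2 FPKM in dLN (log2 ratio 3.19). Tfeb, a transcription factor of lysosomal genes, had a log2 ratio of 2.46, and Bloc1s1, a subunit of the BLOC-1 complex, one of 2.20. M6pr, a mannose 6-phosphate receptor that brings granzymes and hydrolases to lysosomes, was at 118 and 120.3 FPKM in CNS and at 550 and 618 FPKM in dLN (log2 ratio -2.28, limma adjusted p = 8.98e-05). Nagpa, which completes the mannose 6-phosphate tag, had a log2 ratio of -1.24, and Vps33b one of -1.13. Lamp3 was listed at 0 in all 4 libraries. Rescaling to the same summed FPKM gave 15 higher and 14 lower, beside 3408 higher and 4543 lower of all genes under that scaling, and the same upper quartile gave 23 and 9.

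Of 14 tested genes for transport on microtubules, 4 rose, 6 fell and 4 were not called (median log2 ratio -0.20), beside 74.9% called over all genes tested. After rescaling to the same summed FPKM 3 were higher and 9 lower (median -0.39), and with the same upper quartile 4 and 5 (median -0.06). The dynactin gene Dctn1 (log2 ratio 1.12), the dynein gene Dync1i2 (0.72) and the deacetylase gene Hdac6 (0.67) rose. The kinesin light chains Klc1 (-0.9999) and Klc2 (-0.69) and the dynein adaptor gene Bicd2 (-0.63) fell. Klc1 was at 16.4 and 19.2 FPKM in CNS and at 35.7 and 37.4 FPKM in dLN.

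Serglycin carries chondroitin sulfate chains. Of 15 tested genes for their synthesis, 11 rose, 3 fell and 1 was not called (median log2 ratio 0.99), beside 37.8% higher and 37.2% lower over all genes tested. B4galt7, which adds the first galactose of the linker, was at 20.3 and 20.9 FPKM in CNS and at 4.40 and 4.39 FPKM in dLN (log2 ratio 2.001, limma adjusted p = 9.40e-05). The chain polymerase gene Chsy1 had a log2 ratio of 1.83 and the sulfotransferase gene Chst12 one of 1.73. The falls were those of Chpf (-1.55), B3galt6 (-1.36) and Chpf2 (-0.55), so the enzymes of the linker and of the polymer moved in both directions.

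The V-ATPase acidifies the granule, which keeps its cargo inactive. Of its 16 tested genes 8 rose, 5 fell and 3 were not called (median log2 ratio 0.24). After rescaling to the same summed FPKM 4 were higher and 6 lower, and the split over all genes turned as well, from 4016 higher and 3952 lower to 3408 and 4543. With the same upper quartile 9 were higher and 5 lower. The largest rises were those of Atp6v0d1 (log2 ratio 1.20), Atp6v1a (1.19) and Tcirg1 (0.99), and the largest falls those of Atp6v0b (-0.93), Atp6ap2 (-0.91) and Atp6v1h (-0.85).

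**Figure D4:**
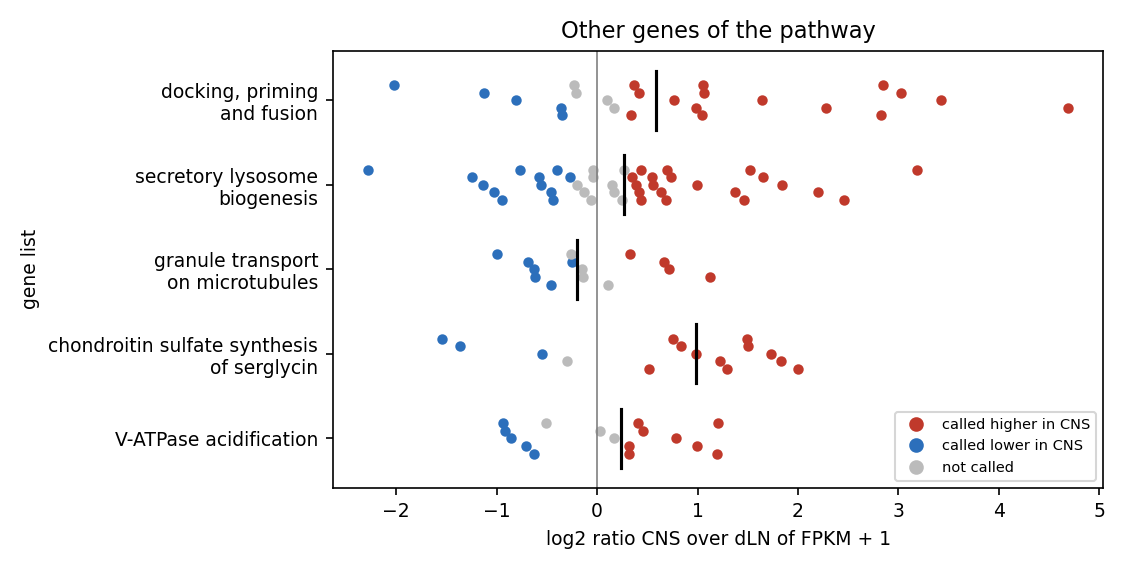
Log2 ratio of CNS over dLN on the FPKM + 1 scale for each tested gene of the 5 pathway lists, in red where called higher in CNS, in blue where called lower and in grey where not called, with a black line at each median. The medians run from -0.20 for transport on microtubules to 0.99 for chondroitin sulfate synthesis, and each list holds genes on both sides of 0.

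Of the 8 cargo genes tested 5 were called higher in CNS, 0 lower and 3 not called, beside 37.8% higher and 37.2% lower over all genes tested. After rescaling to the same summed FPKM Fasl was called lower (log2 ratio -0.55, limma adjusted p = 0.0197). Those called higher were Gzma, Gzmb, Gzmk, Gzmm and Prf1, of which Gzmk and Gzmm passed the minimum in CNS alone, so that their direction was set by it. The 8 cargo genes summed to 636 and 525 FPKM in CNS and to 257 and 206 FPKM in dLN.

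For the members with the highest and the lowest log2 ratio, the genes with the most similar levels were those at the smallest Euclidean distance in log2(FPKM + 1) over the 4 libraries. For Nkg7 these were Ifitm2 (distance 0.76), Ifngr1 (0.97) and Aes (1.07). Ifitm2 was at 407 and 434 FPKM in CNS and at 35.1 and 13.1 FPKM in dLN. For Stx11 they were Aars (0.31), Hsd17b12 (0.34) and Stx6 (0.38), of which Stx6 is also in the list for docking, priming and fusion.

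The labelled cell type was checked on its markers. Cd4 was at 502 and 531 FPKM in CNS and at 82.0 and 66.7 FPKM in dLN. The 10 CD4 T cell markers summed to 3421 and 3470 FPKM in CNS and to 1799 and 1707 FPKM in dLN. Of these 6 were called higher, 3 lower and 1 not called, beside 37.8% higher and 37.2% lower over all genes tested. The 3 lower were the sort marker Cd44 (log2 ratio -0.56, limma adjusted p = 0.00337), Cd247 (-0.41) and Cd5 (-0.29). Cd44 was at 112 FPKM in both CNS libraries and at 176 and 157 FPKM in dLN. After rescaling to the same summed FPKM 6 were higher and 4 lower, and with the same upper quartile 6 and 2. Cd2, with the highest mean over the 4 libraries, was at 487 FPKM in both CNS libraries and at 502 and 480 FPKM in dLN. It was not called, but was called lower after rescaling to the same summed FPKM (log2 ratio -0.21, limma adjusted p = 0.04345). Mast cells, basophils and platelets also use this release machinery, and their markers were near 0. The 8 mast cell and basophil markers summed to at most 0.262 FPKM in any library, with Mcpt8, Mcpt4, Fcer1a, Prss34 and Tpsb2 listed at 0 in all 4 and Ms4a2 with the highest mean. The 5 platelet markers summed to at most 0.252 FPKM, with the highest mean for Itga2b and Pf4 listed at 0 in all 4. The 5 B cell markers summed to 1.22 and 1.76 FPKM in CNS and to 0.432 and 0.258 FPKM in dLN, with the highest mean for Cd79b and Pax5 listed at 0. The 5 dendritic cell markers summed to 7.67 and 14.5 FPKM in CNS and to 3.21 and 2.11 FPKM in dLN. Itgax was the most abundant in CNS, at 5.50 and 5.55 FPKM. Of these 5 markers 1 was called higher (Itgax), 1 lower (Zbtb46, log2 ratio -0.66, limma adjusted p = 0.0183) and 3 were not called. Itgax passed the minimum in CNS alone and Zbtb46 in dLN alone, so that their directions were set by it. After rescaling to the same upper quartile 4 of them were tested, with 1 higher and 0 lower, because Zbtb46 no longer passed the minimum. The 13 markers of glia and neurons summed to 53.9 and 65.0 FPKM in CNS and to 56.0 and 58.3 FPKM in dLN, mostly from Mbp, which was at 48.6 and 44.5 FPKM in CNS and at 55.5 and 57.7 FPKM in dLN and was called lower (log2 ratio -0.28, limma adjusted p = 0.0361), but not after rescaling to the same upper quartile (-0.14, adjusted p = 0.220). Of the 6 tested, 3 were called higher in CNS, 1 lower and 2 not called. Those called higher were Gfap (0.655 and 2.51 FPKM in CNS, 0 in dLN), Tubb3 (2.10 and 4.40 FPKM in CNS, at most 0.105 in dLN) and Nefl (1.34 and 7.01 FPKM in CNS, 0 in dLN), which passed the minimum in CNS alone, so that their direction was set by it. Mog was at 0.0307 FPKM in CNS replicate 1 and at 0 in the others.

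**Figure D5:**
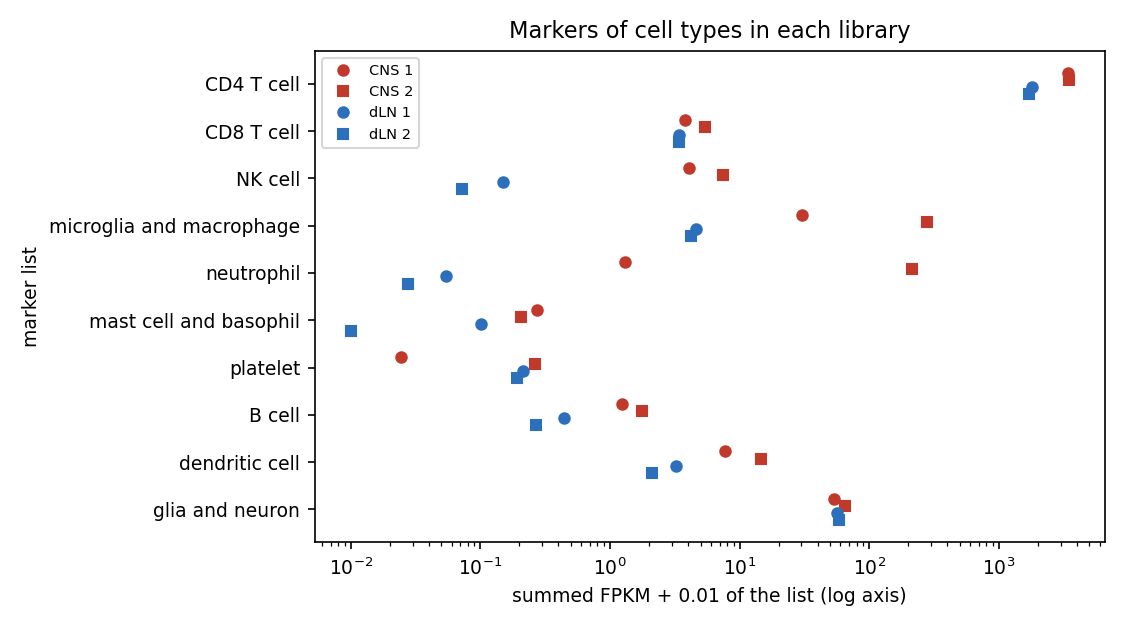
Summed FPKM + 0.01 of each list of cell type markers on a log axis in each library, with CNS in red, dLN in blue, circles for replicate 1 and squares for replicate 2. CD4 T cell markers lie highest in all 4 libraries, and the microglia and macrophage list (30.2 and 277 FPKM) and the neutrophil list (1.30 and 213 FPKM) lie higher in CNS replicate 2 than in CNS replicate 1.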

How the data were processed

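Per the paper's methods the authors trimmed reads before mapping them. They deposited expression as FPKM for 33819 RefSeq transcripts (mm10), in 1 table for each tissue. The aligner and the quantifier are not given in the sources used here. Both library names of the CNS table share 1 header cell, and the value columns were taken in that order. FPKM was summed by gene symbol, without 565 transcripts that have no symbol. Log2(FPKM + 1) was compared with limma 3.58.1 (lmFit, eBayes with trend) in R 4.3.3, with tissue as the only term. This scale understates changes of low genes. Transcript starts are counted from 1. Strands and Lamp2 exons came from GENCODE M21, promoters from RefSeq. Tables, sequences and plots were made in Python 3.11.15 (numpy 2.4.6; pandas 2.3.3; scipy 1.17.1; matplotlib 3.10.9). The depth estimate and the limma fit were tested on simulated data. Members and the 18 gene lists were chosen with earlier results of these data known. Motifs, ratios between members and sums were chosen after values had been seen. Genes named beyond the members are relatives, cargo, the 3 largest called rises and falls of each pathway list without overlap, the 3 genes nearest to Nkg7 and to Stx11, and from each marker list the most abundant gene and those at 0. Cd4, Cd5, Cd44, Cd69, Cd247, Cd8a, Ncr1, Mog, Gzmm, Fasl, Gfap, Tubb3, Nefl, Zbtb46, Grtp1 and the sex-linked genes were named after their values had been seen. The 14 alternatives covered the pseudocount, the minimum, scaling, summing, the variance model, a replicate block and leaving out each library.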

Additional observations from a re-analysis of the deposited data

How the results depend on the processing

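Over 14 alternatives 139 member log2 ratios were recomputed. Direction and side of the threshold were unchanged in 129, while 4 lost the call (all of Stxbp2), 4 gained it (all of Cd63) and 2 reversed. Both reversals were of Lamp1, which was called under none of the 14. It went from 0.07 to -0.13 after rescaling to the same summed FPKM, a scaling that moved the median of all genes by -0.18. It went to -0.0270 without CNS replicate 2 and to 0.157 without CNS replicate 1, and the cause was not tested. Each alternative called 2 members lower and between 5 and 7 members higher. Genes called between the tissues numbered 7968, and 6676 to 7429 with a library left out. A tissue with a library left out has no spread of its own and was assumed to vary like the other.

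The replicate numbers 1 and 2 occur in both tissues, but no pairing is described. Differences between replicates correlated at 0.0933 between the tissues across genes, and the libraries were therefore treated as unpaired. A block for the replicate number gave 7828 called genes, with 6 members higher and 2 lower. Cd63 was read with 2 and 0 fragments in dLN, so depth limits how low its level there can be read.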
